A study of Homo sapiens with 6 samples.

Results

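The NRF2 antioxidant genes described here are 9 of the 25528 gene symbols measured by RNA-seq in DU-145/tet-XISTshRNA cells: NFE2L2, KEAP1, NQO1, GCLC, GCLM, TXNRD1, HMOX1, SRXN1 and AKR1B10. They were chosen by name, and all 9 were found in the table. DU-145 is an established human prostate carcinoma line. All 6 samples carried the same tetracycline-inducible short hairpin RNA against XIST, and no sample with a control hairpin was analysed here, so silencing of XIST and exposure to doxycycline itself cannot be told apart. The vehicle group (0.1% DMSO) held 3 samples, and the other 3 had received doxycycline (DOX) at 500 ng/ml for 7 days. The comparison asks how the antioxidant genes differ after the hairpin is induced.

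NRF2, the protein made from NFE2L2, is a transcription factor that KEAP1 binds and hands to a ubiquitin ligase for degradation. When oxidants or electrophiles modify KEAP1, NRF2 escapes, pairs with a small MAF protein and binds antioxidant response elements (AREs). Its targets make glutathione, reduce thioredoxin and peroxiredoxins, detoxify quinones and carbonyls and degrade heme. Because NRF2 is controlled largely through protein stability, the level of its mRNA does not report its activity, whereas the mRNAs of its targets are the usual readout.

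The epithelial markers KRT8, KRT18 and KRT19 ranged from 48.9 to 146.5 transcripts per 1000000 (TPM) over the 6 samples, and KLK3, CD3E, COL1A2 and DCN were listed at 0. XIST was listed at 0 in all 6 samples, as was EIF4A1, a translation factor that cells generally use, so the silencing could not be checked in this table. Depth, recovered from TPM and the authors' mean normalized counts, was 5458017 to 20338631 reads on genes in vehicle and 17488994 to 64586760 in DOX samples, and was lowest in vehicle replicate 3 and highest in DOX replicate 1. TPM sets every sample's total to 1000000, and 5 abundant small RNAs (RPPH1, RN7SK and the RN7SL1, RN7SL2 and RN7SL3 copies) held 67.5 to 76.0% of it in vehicle and 76.0 to 82.6% in DOX. That share, too, had its extremes in vehicle replicate 3 (lowest) and DOX replicate 1 (highest). Over the genes that averaged at least 1 on each scale, the median log2 fold change was -0.35 on TPM (11672 genes) and 0.02 on scaled TPM (11595 genes), for which each sample's TPM was rescaled by its median ratio to the mean profile of all samples. Each gene is therefore given on both scales, and a difference on TPM is read against that shift.

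The start regions of the genes that the results turn on are shown first, because NRF2 acts through AREs. RefSeq promoter windows of GRCh38.p14, reaching from 250 bases before to 50 bases after the start site, were searched on both strands for the ARE core TGACNNNGC. Windows were at hand for 7 of the 9 genes, and the core was found in those of GCLM, KEAP1 and TXNRD1. GCLC is shown because it had the most negative fold change. GCLC, GCLM and KEAP1 lie on the minus strand and TXNRD1 on the plus strand. Every window runs 5′ to 3′ along its gene, and capitals mark matches to the core or its reverse complement.
GCLC chr6:53545052-53545351: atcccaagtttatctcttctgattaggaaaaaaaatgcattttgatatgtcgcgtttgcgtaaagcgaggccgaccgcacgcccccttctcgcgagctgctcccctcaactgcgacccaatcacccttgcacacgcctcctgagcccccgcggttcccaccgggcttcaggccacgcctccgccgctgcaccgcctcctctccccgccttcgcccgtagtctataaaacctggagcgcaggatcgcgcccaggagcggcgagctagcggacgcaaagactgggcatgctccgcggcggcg
GCLM chr1:93909381-93909680: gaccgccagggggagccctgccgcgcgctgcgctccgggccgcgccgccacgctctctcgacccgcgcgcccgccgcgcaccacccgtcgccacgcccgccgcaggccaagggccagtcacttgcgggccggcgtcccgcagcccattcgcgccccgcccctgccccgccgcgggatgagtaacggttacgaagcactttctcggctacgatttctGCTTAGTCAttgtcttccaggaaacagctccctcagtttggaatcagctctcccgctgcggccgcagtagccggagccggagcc
KEAP1 chr19:10502722-10503021: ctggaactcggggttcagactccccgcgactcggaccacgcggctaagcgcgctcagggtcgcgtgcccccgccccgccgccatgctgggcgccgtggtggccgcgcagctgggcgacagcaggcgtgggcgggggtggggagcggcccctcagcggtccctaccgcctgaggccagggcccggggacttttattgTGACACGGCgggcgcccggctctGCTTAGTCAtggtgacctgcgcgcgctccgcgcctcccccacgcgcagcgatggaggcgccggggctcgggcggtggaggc
TXNRD1 chr12:104215529-104215828: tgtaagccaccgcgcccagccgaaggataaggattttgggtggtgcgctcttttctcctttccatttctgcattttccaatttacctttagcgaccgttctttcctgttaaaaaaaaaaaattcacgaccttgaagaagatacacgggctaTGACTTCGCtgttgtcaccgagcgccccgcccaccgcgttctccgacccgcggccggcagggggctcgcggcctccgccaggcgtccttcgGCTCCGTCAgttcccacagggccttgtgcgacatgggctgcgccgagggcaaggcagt
TXNRD1 chr12:104286782-104287081: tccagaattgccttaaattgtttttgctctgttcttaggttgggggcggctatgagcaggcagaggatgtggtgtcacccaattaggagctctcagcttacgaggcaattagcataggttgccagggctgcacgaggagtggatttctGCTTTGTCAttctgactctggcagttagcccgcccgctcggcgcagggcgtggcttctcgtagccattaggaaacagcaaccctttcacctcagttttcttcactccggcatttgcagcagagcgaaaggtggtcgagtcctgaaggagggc

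The GCLM window held 1 match, whose first base lay at -34 from the start site. The same 9 letters stood at -31 in the second KEAP1 window, which also had a match at -54. The first TXNRD1 window had matches at -99 and -8, and the second had 1 at -102. No match was found in the windows of GCLC, NQO1, NFE2L2 and SRXN1 or in the other KEAP1 window, which says only that these letters are not there. The core is common: it was present in 13.3% of all 35116 promoter windows and in 14.8% of the 12847 windows of tested genes. A match is a description of the letters and not a measured binding site.

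In vehicle-treated cells the 9 genes covered a wide range of levels. On the TPM scale, which divides by gene length, TXNRD1 (585 ± 121, mean ± SD, n = 3) and NQO1 (396 ± 50.4) were the most abundant, and by mean TPM over all 6 samples they ranked 46 and 75 of the 25528 symbols. GCLC (96.1 ± 9.72), SRXN1 (44.3 ± 4.69), NFE2L2 (43.8 ± 8.19) and GCLM (27.7 ± 5.64) followed. HMOX1 (14.2 ± 3.67) and KEAP1 (13.9 ± 2.66) came next, and AKR1B10 was last at 0.796 ± 0.118. Over the 6 samples, the ranges of neighbours in this order were apart between NQO1 and GCLC and between KEAP1 and AKR1B10, and overlapped for the other 6 neighbouring pairs. SRXN1 exceeded NFE2L2 in 4 of 6 samples and HMOX1 exceeded KEAP1 in 3 of 6, so the order within these 2 pairs was not resolved.

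**Figure D1:**
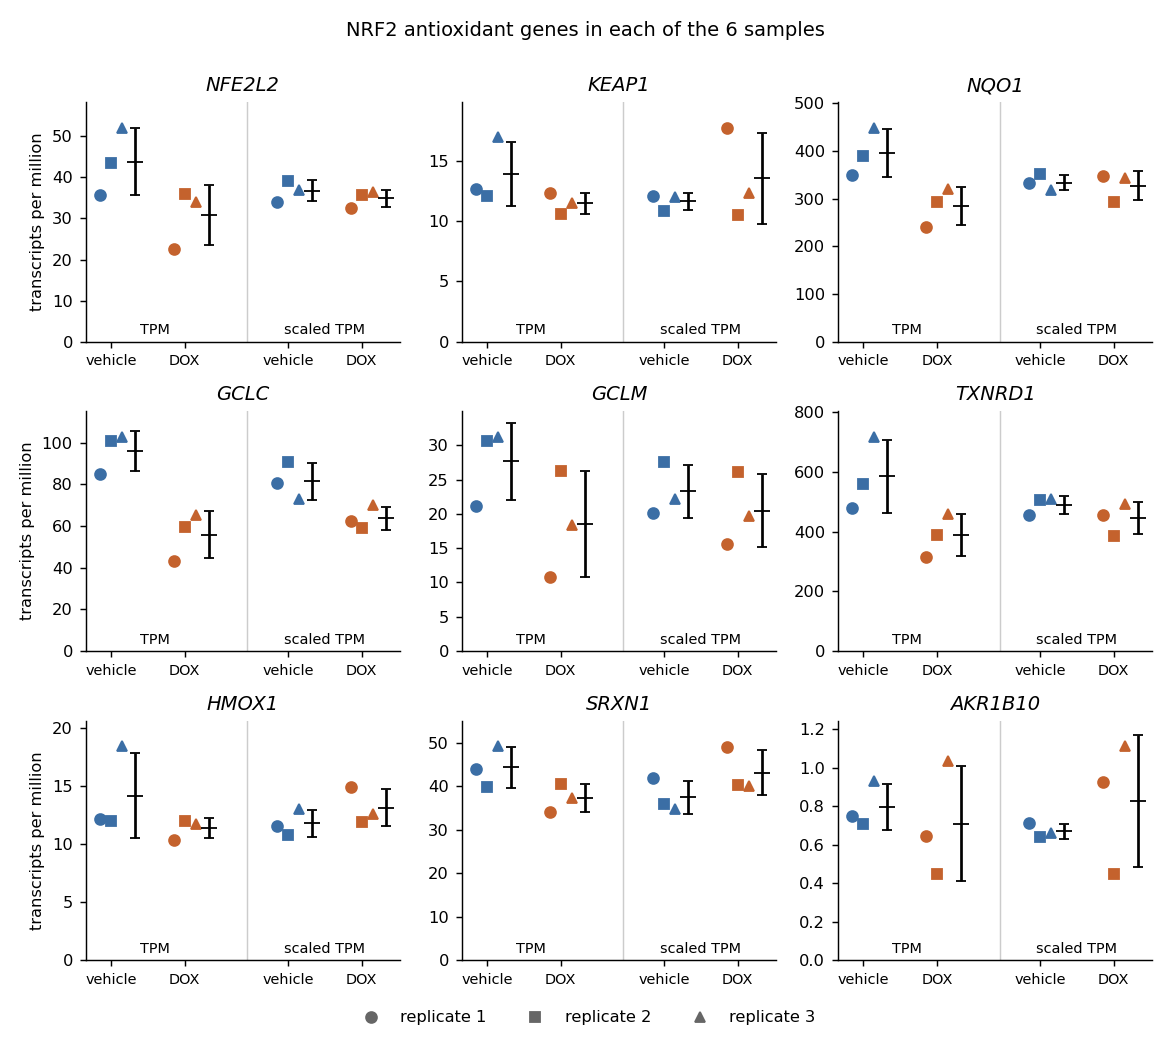
Levels of the 9 genes in each sample, in TPM as deposited (left of each panel) and scaled TPM (right). Points are single samples, with marker shape for the replicate number, and bars are mean ± SD of 3 samples. DOX points of GCLC lie below all vehicle points on both scales, whereas those of NQO1 and TXNRD1 do so on TPM only. Of all genes tested, 30.7% show this on TPM and 9.15% on scaled TPM.

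None of the 9 genes was called different between DOX and vehicle. Calls required a fold of more than 1.5 together with a Benjamini-Hochberg adjusted p below 0.05 in limma on log2(TPM + 1), by which 348 of 11672 genes were called lower (2.98%) and 3 higher (0.0257%). AKR1B10 was under the minimum level, and the other 8 genes were tested. Of these, 3 on TPM and 1 on scaled TPM had an unadjusted p under 0.05, beside 29.4% and 15.9% of all genes tested. Their log2 fold changes on TPM were all negative, with a median of -0.49 beside -0.35 for all genes. On scaled TPM, 5 were negative and 3 positive, with a median of -0.05 beside 0.02, and none of the 11595 genes tested was called by limma (0%).

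Among the sensors and regulators, NFE2L2 stood at 35.8, 43.5 and 52.2 TPM in vehicle replicates 1 to 3 and at 22.5, 36.1 and 33.9 TPM in DOX replicates 1 to 3. The groups overlapped, since DOX replicate 2 slightly exceeded vehicle replicate 1, and every DOX sample was below the vehicle sample of the same number. That pair pattern was common on TPM, seen in 6 of the 8 genes tested and in 76 of 124 pathway genes described further below. The log2 fold change of NFE2L2 was -0.51 (SE 0.28, adjusted p = 0.205 by limma). On scaled TPM the mean was 36.7 ± 2.56 in vehicle and 34.9 ± 2.14 in DOX, and the log2 fold change was -0.07 (SE 0.12, 95% interval -0.34 to 0.19). NFE2L2 was the steadiest of the 9 on that scale, with a coefficient of variation of 6.51% over the 6 samples, beside 6.74% for NQO1. In the annotation used here, 23.4% of the exonic bases of NFE2L2 are shared with HNRNPA3 on the opposite strand, and how the counting treated strand was not given in the sources used here.

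KEAP1, the adaptor that sends NRF2 to degradation, was at 12.7, 12.0 and 16.9 TPM in vehicle and 12.3, 10.6 and 11.5 TPM in DOX. The groups overlapped, and the log2 fold change was -0.24 (SE 0.25, adjusted p = 0.481 by limma). On scaled TPM the values were 12.1, 10.8 and 12.0 in vehicle and 17.8, 10.5 and 12.3 in DOX. The sign turned on that scale, to 0.17 (SE 0.17, adjusted p = 0.616 by limma). DOX replicate 1, the deepest library and the one with the highest share of abundant small RNAs, alone stood clear of the other 5. The ratio of NFE2L2 to KEAP1 TPM, which does not depend on the scaling, was 3.17 ± 0.403 in vehicle and 2.73 ± 0.814 in DOX (n = 3 each). The difference in that ratio did not pass the test (two-sided exact permutation p = 0.5, adjusted p = 0.75 over 3 ratios), in a design whose smallest possible p is 0.1. The ratio was lower in DOX in 3 of 3 same-numbered pairs, which the test does not use.

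GCLC had the most negative fold change of the 8 genes tested. It encodes the catalytic subunit of glutamate-cysteine ligase, the rate-limiting enzyme of glutathione synthesis. GCLC stood at 85.0, 100.6 and 102.8 TPM in vehicle and at 43.2, 59.4 and 65.1 TPM in DOX, where its mean was 58.1% of the vehicle mean. All DOX samples were below all vehicle samples, as they were for 30.7% of all genes tested on TPM. The log2 fold change was -0.79 (SE 0.27, adjusted p = 0.0735 by limma), and 5.58% of the genes tested had a lower value.

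GCLC was also the only one of the 8 genes whose groups stayed apart after scaling. Its scaled TPM was 80.9, 90.7 and 72.8 in vehicle and 62.3, 59.0 and 70.0 in DOX. The gap between the lowest vehicle and the highest DOX sample was small, and such separation in this direction was seen for 9.15% of the genes tested. The log2 fold change was -0.35 (SE 0.13, 95% interval -0.64 to -0.05), with an unadjusted p of 0.0245 and an adjusted p of 0.281 by limma. With voom on the recovered reads and the replicate number as a block it was -0.36 (SE 0.11, adjusted p = 0.0521 by limma). In bulk RNA, fewer cells expressing a gene and less RNA per cell cannot be told apart.

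GCLM, the modifier subunit of the same enzyme, varied more between samples. It stood at 21.1, 30.6 and 31.2 TPM in vehicle and at 10.8, 26.3 and 18.4 TPM in DOX, and the groups overlapped. The log2 fold change was -0.62 (SE 0.29, adjusted p = 0.146 by limma) on TPM and -0.19 (SE 0.19, adjusted p = 0.598) on scaled TPM. Every DOX sample was below its same-numbered vehicle sample on both scales, a pattern that 24.5% of genes showed on scaled TPM. The ratio of GCLC to GCLM was 3.53 ± 0.419 in vehicle and 3.27 ± 0.901 in DOX (two-sided exact permutation p = 0.8, adjusted p = 0.8 over 3 ratios), and was lower in DOX in 2 of 3 pairs.

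TXNRD1, the cytosolic thioredoxin reductase, and NQO1, the quinone reductase, were the most abundant targets among the 9 genes. TXNRD1 stood at 479, 560 and 717 TPM in vehicle and at 317, 389 and 458 TPM in DOX. NQO1 stood at 349, 390 and 449 TPM in vehicle and at 241, 294 and 319 TPM in DOX. For both genes every DOX sample was below every vehicle sample on TPM, as was so for 30.7% of all genes tested. The log2 fold changes were -0.59 for TXNRD1 (SE 0.25, adjusted p = 0.123 by limma) and -0.48 for NQO1 (SE 0.25, adjusted p = 0.196).

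On scaled TPM this separation was gone for both. TXNRD1 then stood at 455, 505 and 508 in vehicle and at 456, 387 and 492 in DOX, with a log2 fold change of -0.14 (95% interval -0.45 to 0.16). NQO1 stood at 332, 351 and 318 in vehicle and at 347, 292 and 343 in DOX, with a log2 fold change of -0.03 (95% interval -0.32 to 0.26). The interval of NQO1 holds folds from 0.803 to 1.19, and these samples do not tell folds within that span apart. It is not a limit of detection, since no gene was called on this scale. The ratio of NQO1 to TXNRD1 was 0.684 ± 0.0526 in vehicle and 0.738 ± 0.0352 in DOX (two-sided exact permutation p = 0.2, adjusted p = 0.6 over 3 ratios), and was higher in DOX in 3 of 3 same-numbered pairs.

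HMOX1 and SRXN1 had log2 fold changes that were negative on TPM and positive on scaled TPM. HMOX1, the inducible heme oxygenase, stood at 12.2, 12.0 and 18.4 TPM in vehicle and at 10.4, 12.0 and 11.7 TPM in DOX. Vehicle replicate 3, the shallowest library with 138 recovered HMOX1 reads, was alone above the rest on TPM. That library also had the lowest share of abundant small RNAs. The scaled TPM of HMOX1 was 11.6, 10.8 and 13.1 in vehicle and 15.0, 11.9 and 12.6 in DOX, highest in DOX replicate 1. The log2 fold change of HMOX1 was -0.27 (SE 0.26, adjusted p = 0.439 by limma) on TPM and 0.14 (SE 0.13, adjusted p = 0.584) on scaled TPM. SRXN1, which repairs overoxidized peroxiredoxins, stood at 43.98, 39.8 and 49.2 TPM in vehicle and at 34.1, 40.6 and 37.2 TPM in DOX.

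The log2 fold change of SRXN1 was -0.24 (SE 0.27, adjusted p = 0.513 by limma) on TPM and 0.20 (SE 0.13, adjusted p = 0.457) on scaled TPM. After scaling, SRXN1 was the only one of the 8 higher in every same-numbered pair, as 27.0% of all genes were. An unnamed protein-coding gene on the same strand covers 90.7% of the exonic bases of SRXN1 in the annotation used here, so reads of the 2 genes may not be separable.

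AKR1B10, an aldo-keto reductase that reduces aldehydes and retinal, was near the floor of the data. It stood at 0.749, 0.709 and 0.931 TPM in vehicle and at 0.643, 0.449 and 1.03 TPM in DOX, on 24, 25, 7, 124, 17 and 39 recovered reads in the same order. The mean difference in log2(TPM + 1) was -0.08 on TPM and 0.11 on scaled TPM (two-sided exact permutation p = 0.6 for each). The near-identical copy AKR1B15 had 1 to 22 reads, so the split between them is uncertain. AKR1B1, the related aldose reductase, was far above both at 83.1 to 121.8 TPM.

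**Figure D2:**
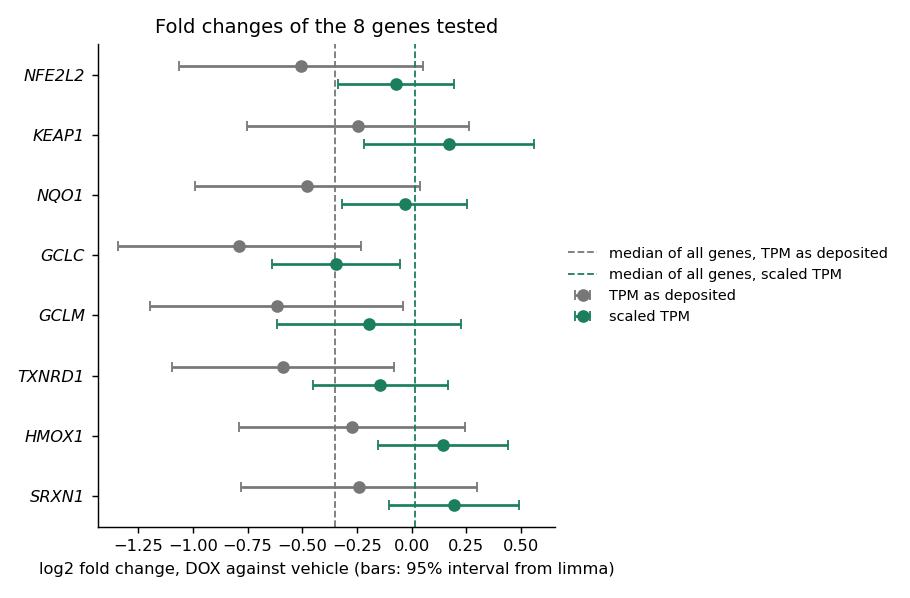
Log2 fold changes of the 8 genes tested, DOX against vehicle, on TPM as deposited (grey) and scaled TPM (green), with 95% intervals from limma. Dashed lines are the medians of all genes tested, at -0.35 and 0.02. The interval of GCLC lies below 0 on both scales, and on TPM it holds the median of all genes. The intervals of GCLM and TXNRD1 also lie below 0 on TPM. Intervals are not adjusted for the number of genes. With scaling, GC and length correction and block, that of GCLC was -0.52 to 0.02 (not drawn).

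Samples that share a replicate number deviated together on TPM, clearly so only for number 1. A block on the replicate number changed calls on TPM. With it, GCLC (adjusted p = 0.00147 by limma), GCLM (0.0119) and TXNRD1 (0.0149) were called lower, against a background of 2217 of 11672 genes (19.0%). In that fit the variance was pooled over all genes, so that the SE was 0.20 for each of the 8. NFE2L2 (adjusted p = 0.0401) and NQO1 (0.0493) passed the p threshold without reaching a fold of 1.5. With the block on scaled TPM none of the 8 was called, and with voom on recovered reads and the block none was called either, against 261 genes lower (2.24%) and 172 higher (1.47%). The lower calls of these 3 genes were thus made only on TPM, the scale on which the median of all genes is itself shifted. On TPM without the block, GCLC (adjusted p = 0.0476) and GCLM (0.0242) were also called once DOX replicate 2 was left out, a fit in which 20.3% of all genes were called lower.

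Fold changes of these genes lay along the GC content of their exons, as did those of all genes. On scaled TPM, the median log2 fold change ran over 10 equal bins of genes from -0.27 in the bin of lowest GC content (31.0 to 38.4%) to 0.27 in that of highest (60.1 to 73.8%). The genes with negative values on scaled TPM had GC contents of 38.6% (GCLM), 42.4% (NFE2L2), 44.4% (GCLC), 44.8% (NQO1) and 46.3% (TXNRD1). The genes with positive values had 51.7% (SRXN1), 58.5% (HMOX1) and 63.4% (KEAP1). All 5 genes with negative values thus had a lower GC content than all 3 with positive values. GCLC, at -0.35, lay below the middle 50% of genes in its own bin, which spanned -0.18 to 0.04. TXNRD1, at -0.14, lay just below that of its bin, which spanned -0.12 to 0.09, and the other 6 genes lay within theirs.

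After a correction for GC content and exonic length with the block, the log2 fold change of KEAP1 on scaled TPM was -0.11, that of HMOX1 was -0.10 and that of SRXN1 was 0.05. Those of GCLM and NFE2L2 were 0.02 and 0.10. TXNRD1 was at -0.11 and NQO1 at -0.03. GCLC remained the most negative at -0.25 (SE 0.12, adjusted p = 0.348 by limma). The origin of the relation to GC content was not tested.

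**Figure D3:**
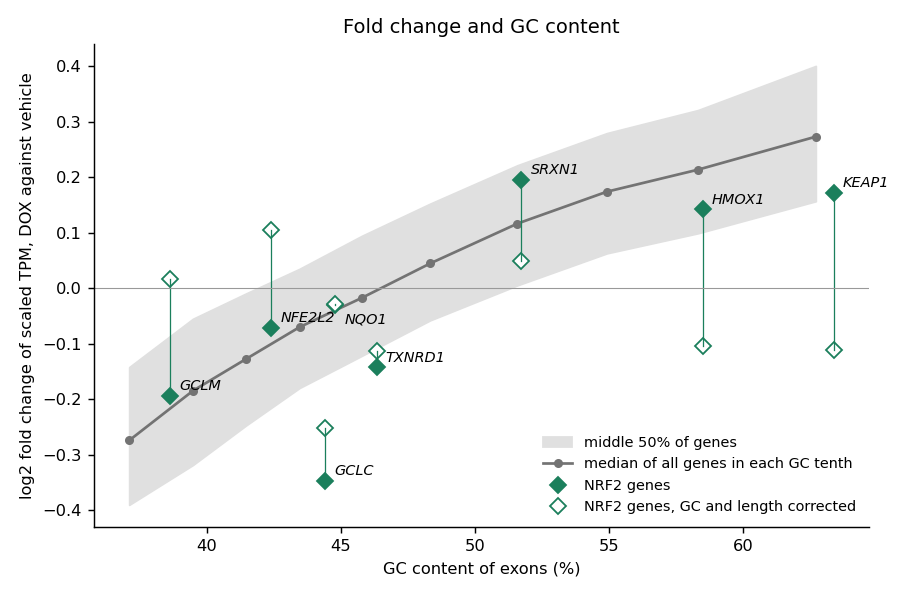
Log2 fold change on scaled TPM against the GC content of exons. The grey line joins the medians of all genes in each of 10 bins of GC content, from -0.27 to 0.27, with the middle 50% of genes shaded. Filled diamonds are the 8 genes and open diamonds their values after correction for GC content and exonic length, of which GCLC at -0.25 is the lowest.

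The likeness of other genes to NFE2L2 over the 6 samples was ranked by Pearson r on log2(scaled TPM + 1) among 131 members and pathway genes. ME1 (malic enzyme, r = 0.95), BTRC (the F-box protein of another NRF2 ligase, r = 0.95) and PON2 (a paraoxonase, r = 0.89) came first. Of the other members, GCLM had r = 0.83, GCLC 0.55, TXNRD1 0.42, NQO1 -0.02, HMOX1 -0.70, KEAP1 -0.77 and SRXN1 -0.91. The 6 points share libraries, depth and the GC trend above, and the values are a description.

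A wider list of 138 NRF2 pathway genes in 7 roles was then read from the same fit. Of its 124 genes tested on TPM, 4 were called lower and none higher, beside 2.98% and 0.0257% of all genes. These were SLC7A11, TXNIP, SESN3 and AKR1C1, and 32 of the 124 had an unadjusted p under 0.05, beside 29.4% of all genes. The median log2 fold change of the 124 was -0.32 on TPM and 0.08 on scaled TPM, beside -0.35 and 0.02 for all genes. On scaled TPM none of the 124 was called, with 18 at an unadjusted p under 0.05, beside 15.9% of all genes.

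SLC7A11, the cystine transporter that feeds glutathione synthesis, fell by 1.17 on the log2 scale (SE 0.30, adjusted p = 0.0362 by limma). It stood at 14.8, 19.2 and 23.1 TPM in vehicle and at 4.11, 16.2 and 6.76 TPM in DOX. The groups overlapped through DOX replicate 2, which was well above the other DOX samples. On scaled TPM the log2 fold change was -0.77 (adjusted p = 0.281 by limma), and with voom on recovered reads and the block it was -0.82 (adjusted p = 0.0182). SLC7A11 has a GC content of 35.4%, and voom made no correction for that. Its scaled value after correction was -0.43 (adjusted p = 0.284 by limma).

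SESN3, a sestrin, fell by 1.07 (SE 0.27, adjusted p = 0.0362 by limma). Its groups did not overlap on either scale, and neither did those of TXNIP and AKR1C1, described next. Every DOX sample was below every vehicle sample for 30.7% of all genes tested on TPM and 9.15% on scaled TPM. SESN3 stood at 21.6, 28.8 and 34.7 TPM in vehicle and at 8.70, 15.5 and 15.4 TPM in DOX. Its scaled TPM was 20.5, 25.9 and 24.6 in vehicle and 12.5, 15.4 and 16.5 in DOX, a log2 fold change of -0.64 (adjusted p = 0.268 by limma), and with voom and the block it was -0.68 (adjusted p = 0.00643). SESN3 has a GC content of 38.0%, and its scaled value after correction was -0.37 (adjusted p = 0.238).

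TXNIP, which binds and inhibits thioredoxin, fell by 0.84 (SE 0.21, adjusted p = 0.033 by limma), from 3.19 ± 0.62 to 1.37 ± 0.557 TPM. AKR1C1, a ketosteroid reductase, fell by 1.00 (SE 0.20, adjusted p = 0.00512 by limma), from 2.69 ± 0.941 to 0.805 ± 0.0807 TPM, on 21 to 143 recovered reads per sample. Its near-identical copy AKR1C2 may share those reads. On scaled TPM the log2 fold changes of TXNIP and AKR1C1 were -0.52 and -0.72 (adjusted p = 0.281 and 0.268 by limma). With voom and the block they were -0.73 and -1.01 (adjusted p = 0.066 and 0.0777 by limma), and neither was called. Their scaled values after correction for GC content and length were -0.46 and -0.54 (adjusted p = 0.278 and 0.276 by limma). AKR1C1 and SESN3 are in a list that the study drew from these samples, so their direction is not independent evidence.

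All 4 calls were lost on TPM without vehicle replicate 2, at an adjusted p of 0.301 by limma for each gene. They were also lost without vehicle replicate 3, at an adjusted p of 0.459 for SLC7A11, TXNIP and SESN3 and 0.24 for AKR1C1. Without DOX replicate 1, SLC7A11 (adjusted p = 0.0965 by limma) and SESN3 (0.0815) lost theirs, as did SLC7A11 without DOX replicate 3 (0.0688). The 4 log2 fold changes were negative in all 6 fits that left out 1 sample, between -1.65 and -0.66. Over all genes, 1 was called without vehicle replicate 2 and 0 without vehicle replicate 3.

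By role, the most abundant genes of each list were not called on either scale. The counts called in each list are on TPM, where 2.98% of all genes were called lower. Among NRF2 regulators and partners (13 tested, none called), SQSTM1, the autophagy receptor that sequesters KEAP1, went from 152 ± 30.6 to 126 ± 14.4 TPM. GSK3B, a kinase that marks NRF2 for degradation, had a log2 fold change of -0.72 on TPM (adjusted p = 0.0959 by limma) and -0.29 on scaled TPM. NFE2L1, the NRF2 paralog, had -0.20 and 0.23.

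In the glutathione list (30 tested, 1 called lower), GSR, glutathione reductase, had log2 fold changes of -0.36 on TPM and 0.08 on scaled TPM. MGST1, a microsomal glutathione transferase, was at 387 ± 82.2 TPM in vehicle and 226 ± 52.3 TPM in DOX. Its log2 fold change was -0.78 (adjusted p = 0.0701 by limma) on TPM and -0.33 (adjusted p = 0.297) on scaled TPM. GLRX5, a mitochondrial glutaredoxin, had -0.27 and 0.17.

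In the thioredoxin list (19 tested, 2 called lower), TXN itself had -0.36 on TPM and 0.08 on scaled TPM. PRDX1, a cytosolic peroxiredoxin, had -0.25 and 0.20. PRDX3, its mitochondrial counterpart, had -0.68 (adjusted p = 0.105 by limma) and -0.24 (adjusted p = 0.328).

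The list named for NADPH-producing enzymes (18 tested) gave no call, and some of its genes encode enzymes that do not make NADPH themselves. Of its most abundant members, TKT had log2 fold changes of -0.11 on TPM and 0.33 on scaled TPM, and TALDO1 had -0.21 and 0.24. Both belong to the branch of the pentose phosphate pathway that does not make NADPH.

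In the carbonyl and quinone list (23 tested, 1 called lower), AKR1B1 had -0.31 on TPM and 0.13 on scaled TPM. EPHX1, a microsomal epoxide hydrolase, had -0.38 and 0.06. UGDH, which makes UDP-glucuronate for conjugation, had -0.63 and -0.19.

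Of the 15 heme and iron genes none was called on either scale by limma without the block. FTL and FTH1, the ferritin chains, had log2 fold changes of -0.24 and -0.18 on TPM and 0.20 and 0.27 on scaled TPM. PCBP2, an iron chaperone and RNA-binding protein, had -0.38 and 0.07. HMOX2, the constitutive heme oxygenase, was chosen after its values were seen. It was the only pathway gene called higher with voom and the block, at 0.59 (adjusted p = 0.0324 by limma). That fit called 1.47% of all genes higher. In the other fits HMOX2 had 0.15 on TPM (adjusted p = 0.596 by limma) and 0.45 on scaled TPM (adjusted p = 0.281). After correction for GC content and length with the block, its scaled value was 0.25 (adjusted p = 0.373 by limma).

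Of the 6 genes for superoxide and hydrogen peroxide tested none was called either. SOD1, the cytosolic superoxide dismutase, had -0.22 on TPM and 0.22 on scaled TPM. SOD2, the mitochondrial form, had -0.85 (adjusted p = 0.063 by limma) and -0.42 (adjusted p = 0.292), and PON2 had -0.61 and -0.17. With the block on TPM, 22 of the 124 pathway genes were called lower, SOD2, MGST1, GSK3B and PRDX3 among them, against 19.0% of all genes.

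**Figure D4:**
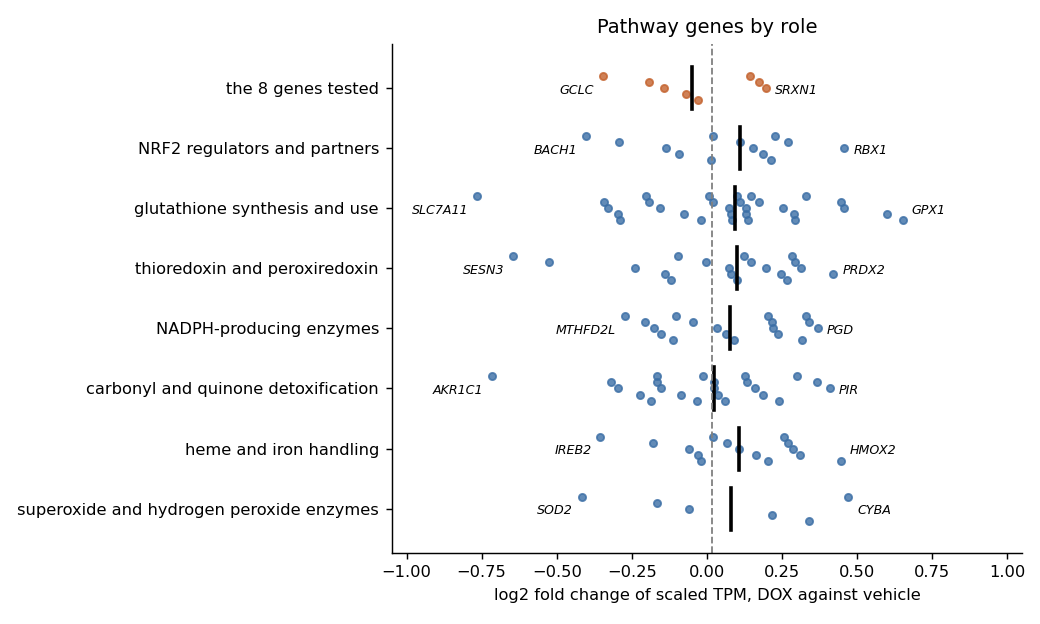
Log2 fold changes on scaled TPM of the 8 genes tested (orange) and of the pathway genes in 7 roles (blue), with a bar at each median and a dashed line at the median of all genes, 0.02. The lowest and highest gene of each row is labelled, and the medians of the 7 roles lie between 0.02 and 0.11.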

How the data were processed

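The 6 RNA-seq libraries were analysed from the deposited table of TPM per gene symbol. Per the paper's methods and the labels, the authors prepared stranded mRNA libraries, used STAR for alignment to GRCh38, and deposited TPM values. Tool versions, the counter and how it treated strand are not given in the sources used here. RNA isolation is given as Trizol in the methods and as a column kit in the labels. A deposited DESeq2 table holds the authors' fold changes and p-values, which were not used, and a mean normalized count per gene, a signal that was combined with TPM to recover reads. Recovered low values (under 20 reads) were whole within 0.05 reads for 97.0 to 99.9% of values per sample, against 10% by chance.

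Groups and replicate numbers came from the labels, which do not state whether the samples are separate cultures. The p-values measure the spread between these samples. DOX was compared with vehicle by limma 3.58.1 (R 4.3.3) on log2(TPM + 1) with a variance trend, over genes with mean TPM of at least 1 and without a block. A fold on this scale understates the change of low genes. Alternatives were median-of-ratios scaling, the replicate number as a block, a pseudocount of 0.1, no filter, voom on recovered reads, a 5 df spline correction for GC content and length, and leaving out each sample. The correction on scaled TPM was added after seeing the data. Same-numbered samples deviated together (r = 0.57, 0.24 and 0.21 across genes on TPM), each over 0.1, and were taken as paired. Pairing rests on these correlations alone, and numbers 2 and 3 were barely told apart (r = 0.19 for vehicle 2 with DOX 3). On scaled TPM, DOX 3 correlated more with vehicle 2 (r = 0.22) than with vehicle 3 (r = 0.19). Counts of same-numbered pairs and fits with the block carry this limit. GC content came from GENCODE 44, for 93.0% of tested genes. Scripts were tested on simulated data. Python 3.11.15, pandas 2.3.3, SciPy 1.17.1 and matplotlib 3.10.9 were used.

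The members and lists were chosen with earlier results of these data known. Named genes were all 9 members, each called gene of the 7 role lists, the 3 genes of highest mean TPM in each, and the 3 genes most like NFE2L2. Some genes that this rule or the marker lists include are not reported here.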

Additional observations from a re-analysis of the deposited data

How the results depend on the processing

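The number of genes called on TPM, 351 in all, was 0 with median-of-ratios scaling (with or without the replicate block, and with the GC and length correction and block), 2232 with the replicate block, 48 with a pseudocount of 0.1, 0 without a filter on low values, 1 with voom and 1052 with the GC and length correction and replicate block. With voom and the block it was 433, and with the GC and length correction without the block it was 328. Leaving out 1 sample gave 0 to 2389 on TPM and 0 to 14 on scaled TPM. Of the 8 members, 3 were called with the replicate block, 1 (GCLC) with the GC and length correction and block, 2 without DOX replicate 2 and 0 in all other fits. The 4 pathway genes called became 22 with the replicate block, 14 with the GC and length correction and block, 1 with a pseudocount of 0.1, 0 with voom, with no filter and on scaled TPM, and 0 to 17 when 1 sample was left out. With voom and the block 3 pathway genes were called (2 lower and 1 higher), and with the GC and length correction without the block 6 were. The causes were not tested.

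The signs of GCLC and TXNRD1 were negative in all 22 alternatives, which are refits of the same samples. In every fit on unscaled TPM, all members tested were negative, as was the median of all genes. Those fits therefore do not set these 2 genes apart. On scaled TPM, with or without the block, KEAP1 turned to 0.17, HMOX1 to 0.14 and SRXN1 to 0.20, with voom to 0.22, 0.20 and 0.20, and with voom and the block to 0.23, 0.20 and 0.20. With scaling, correction and block, NFE2L2 turned to 0.10, GCLM to 0.017 and SRXN1 to 0.049. On scaled TPM without 1 sample, the values that turned were 0.13, 0.19, 0.20, 0.22 and 0.33 for KEAP1, 0.0092 and 0.054 for NQO1, 0.049, 0.087, 0.13, 0.17, 0.21 and 0.21 for HMOX1 and 0.10, 0.15, 0.17, 0.24, 0.25 and 0.27 for SRXN1. The AKR1B10 difference of -0.08 was 0.11 with scaling, -0.20 with a pseudocount of 0.1 and -0.22 to 0.027 without 1 sample, positive without DOX replicate 2. Depth limits AKR1B10 most, at 7 reads in vehicle replicate 3.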
